A study of Mus musculus with 6 samples.

Results

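The nuclear-encoded subunits of oxidative phosphorylation were examined in liver and adrenal gland of Abcg8-deficient mice. Members were the gene symbols of the deposited count table that begin with Nduf and a subunit letter and number, Sdha to Sdhd, Uqcr, Cox4 to Cox8 followed by a, b or c, or Atp5, leaving out hyphenated symbols. This rule found 82 of 33639 genes, of which 37 were placed in complex I, 4 in complex II, 8 in complex III, 16 in complex IV and 17 in complex V. They were set beside the 13 protein genes of mitochondrial DNA. The choice went by name alone and used no measured value. It missed Cox4i1, Cox4i2 and Cyc1, which are subunits of complexes IV and III. It took in Atp5s and Atp5sl, which are not subunits of the ATP synthase itself, and it placed Ndufa4, now counted as a subunit of cytochrome c oxidase, in complex I.

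All mice had a whole-body deletion of Abcg8, the partner of Abcg5 in the transporter that exports plant sterols into bile and gut. Per the labels they were males that had a low sterol diet with 0.005% ezetimibe, a blocker of intestinal sterol uptake, up to weaning. They then received a high sitosterol, ergosterol, stigmasterol or low sitosterol diet for 12 weeks. There were 4 liver libraries, 1 for each diet, and 2 adrenal libraries, high and low sitosterol, with 1 mouse a group and no mouse with intact Abcg8. The labels as used here state neither the age at collection nor the dose of any sterol. A difference between these libraries therefore has no replicate check, has no p-value, and compares single mice. The intervals below cover counting error only.

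Oxidative phosphorylation passes electrons from NADH through complex I, or from succinate through complex II, to complex III, cytochrome c and complex IV, where oxygen is reduced. Complexes I, III and IV pump protons across the inner mitochondrial membrane, and complex V, the ATP synthase, uses the gradient to make ATP. Most subunits come from nuclear genes, while the core of every complex except II also needs subunits made from mitochondrial DNA. Liver uses this capacity for gluconeogenesis, urea and bile acid synthesis, and in adrenal cortex the same membrane holds the first enzyme of steroid synthesis.

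Nuclear respiratory factor 1 (NRF1) and ETS-family factors such as GABP are textbook regulators of these genes, and stretches with their motifs are shown to let a reader see the sites that members share. They lie on the gene strand in the bases before the annotated start, from RefSeq on GRCm38.p6, and capitals mark the motif. The Ndufa11 (chr17:56717693-56717719, plus strand), Cox6a1 (chr5:115349103-115349129, minus strand) and Atp5k (chr5:108434432-108434458, minus strand) stretches hold the NRF1 letters. The Uqcr11 (chr10:80406872-80406896, minus strand) stretch holds the ETS letters, and the Sdhd (chr9:50603880-50603904, minus strand) stretch holds them on the opposite strand.
Ndufa11: ctgcactgcGCGCATGCGcgcacgcct
Cox6a1: aggaacgggGCGCATGCGcgctctcgc
Atp5k: ttcactgcgGCGCATGCGcctttctgg
Uqcr11: ctctcctccCCGGAAGtagatgtca
Sdhd: gtctcctgcCTTCCGGttcacgctt

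A promoter window from 250 bases before to 50 bases after the start was found for 69 of the 82 members and for 27025 genes in all. Both strands were searched. GCGCATGCG, for NRF1, was in 8 member windows (11.6%) and in 1.95% of all windows. CCGGAAG, for ETS factors, was in 16 member windows (23.2%) and in 9.93% of all. AAGATGGC, for YY1, was in 11 member windows (15.9%) and in 3.19% of all. TCAAGGTCA, for estrogen-related receptors, was in 2 member windows (2.90%) and in 0.466% of all. The NRF1 letters are nearly their own reverse complement, so that 1 site can match on both strands, and each window was counted once.

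The depth was 47789184 to 50573364 estimated counts in the livers and 41546507 to 48058374 in the adrenals. Counts of the targeted gene were 490 in the high sitosterol, 394 in the ergosterol, 788 in the stigmasterol and 51 in the low sitosterol liver for Abcg8, and 3 and 2 in the high and low sitosterol adrenals. Which part of Abcg8 is deleted is not stated in the labels, so that these counts do not check the knockout. Some libraries went against their labels or stood apart. The Y-linked genes Eif2s3y and Ddx3y summed to 0.0967 and 0.0248 TPM (a length-scaled share of transcripts) in the high and low sitosterol adrenals, which were labelled male, against 29.5 to 42.4 TPM in the livers. The low sitosterol liver, the baseline of every liver comparison, held 8 adrenal cortex markers at a summed 46.3 TPM, against 1.90 to 6.45 TPM in the other livers. All 7 hepatocyte markers were detected in every liver, and the cortex markers summed to 40801 and 41982 TPM in the high and low sitosterol adrenals, as their tissue labels state.

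Nearly all members were expressed in both tissues. At a limit of 1 CPM, a count set relative to the library total, in at least 1 library, 78 members passed in liver and 79 in adrenal. Cox6a2, the muscle form of subunit VIa, passed in neither tissue, with 0 to 31 counts a library. Cox7b2 and Cox8c, forms known from testis, had 0 counts in all 6 libraries, which allows up to 0.0593 to 0.0722 CPM. Cox8b, a form of heart, muscle and brown fat, had 0, 0, 9 and 3 counts in the high sitosterol, ergosterol, stigmasterol and low sitosterol livers and passed in adrenal alone.

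By TPM, which allows levels to be compared between genes, the highest member was Atp5b, the catalytic beta subunit of the ATP synthase, with a mean of 1554 over the 6 libraries. It was followed by Uqcrq, a small subunit of complex III, at 1321, Cox7c at 1119.6, Cox6a1 at 1074 and Atp5g3, a gene of the membrane c-ring, at 1063. Among the 3 genes for the identical c-ring protein, Atp5g1 averaged 548 TPM and Atp5g2 112 TPM. Complex I members were lower, with median levels of 194 to 215 TPM in the livers against 413 to 470.3 TPM for complex III. Summed TPM of the 82 members was 30519 in the high sitosterol, 28027 in the ergosterol, 32198 in the stigmasterol and 30137 in the low sitosterol liver, so that these genes took close to the same share of transcripts in all 4 livers. The mitochondrial genes summed to 93989.6, 92376, 76105 and 105607 TPM in the same livers, which placed the stigmasterol liver lowest and the low sitosterol liver highest.

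How far a difference is read as lower depends on the scale. Counts were scaled with TMM factors, which set the bulk of genes of 2 libraries equal. On this scale the members stood below the median gene in every comparison with low sitosterol. As a share of all counts they hardly moved: 1.32% in the high sitosterol, 1.28% in the ergosterol, 1.41% in the stigmasterol and 1.40% in the low sitosterol liver. The quantity that both scales share is the distance between the median member and the median gene, and this is the main value given below. A gene is called higher or lower where its ratio reached 1.5-fold on the TMM scale and its 95% interval excluded equality.

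**Figure D1:**
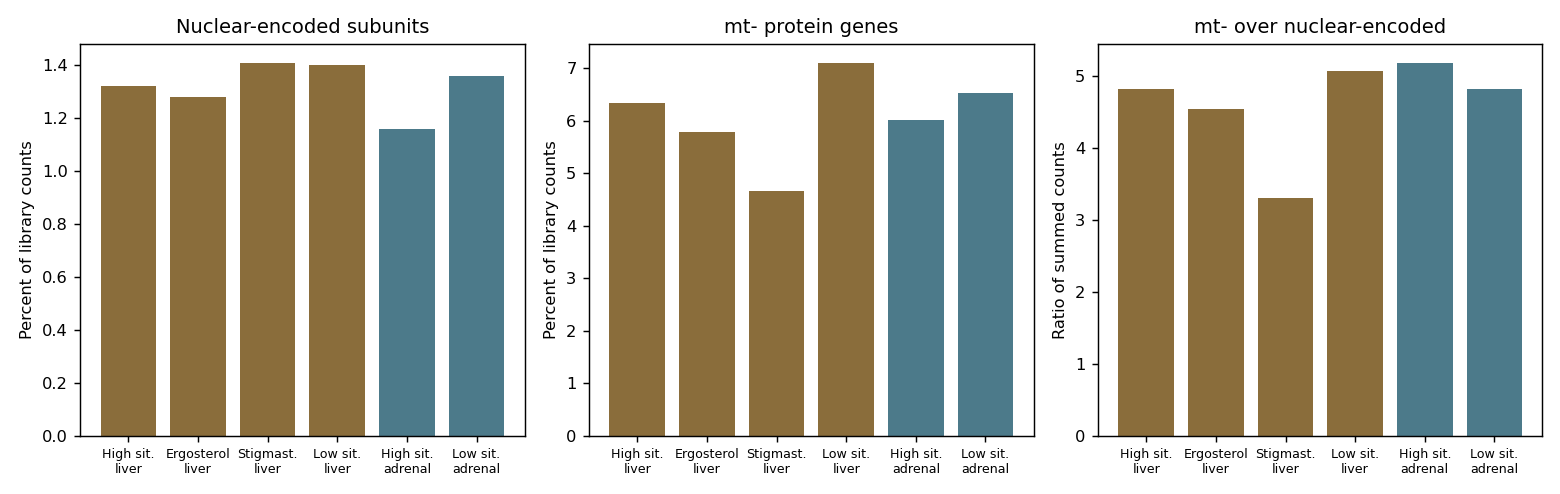
Share of each library's counts taken by the 82 nuclear-encoded subunit genes (left, percent), by the 13 mitochondrial protein genes (middle, percent) and the ratio of the mitochondrial to the nuclear sum (right), for the 4 livers and the 2 adrenals, 1 library a bar. The nuclear share lies between 1.16% and 1.41%, while the mitochondrial share is lowest in the stigmasterol liver (4.66%), where the ratio is 3.30 against 5.07 in the low sitosterol liver.

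The stigmasterol liver differed most. Its median member stood 0.79 (log2) below the median gene, at -0.71 against 0.08 for all genes analysed. Of the 78 members, 75 had a ratio below 0 and 3 a ratio above 0 on the TMM scale. By 1.5-fold 52 were lower, against 17.0% of all genes, and 2 were higher, against 29.9% of all genes. By 2-fold 17 were lower, against 7.79% of all genes, and 1 was higher, against 21.7% of all genes. On total counts the median member was at -0.01 with all genes at 0.77, and on log2(TPM + 0.1) at 0.16 with all genes at 0.94. The sign of the members' own change thus turns with the scale, while the distance is -0.79 and -0.77 on these 2 scales. On log2(TPM + 1) the distance was smaller, at -0.56. Of all genes called, 63.8% were higher by TMM and 92.2% by total counts.

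On the TMM scale every complex was involved in the stigmasterol liver. Medians on the TMM scale were -0.71 for complex I, -0.60 for complex II, -0.76 for complex III, -0.64 for complex IV and -0.92 for complex V. In complex I, 27 of 37 members were called lower. The lowest was Ndufa6, an accessory subunit of the matrix arm, with 111 scaled CPM against 259 at low sitosterol (log2 -1.22, 95% interval -1.26 to -1.18). In complex III, Uqcr11 stood at 109 scaled CPM against 269 (log2 -1.31, -1.35 to -1.27), and Uqcrfs1, the Rieske iron-sulfur protein, was nearest to its baseline at -0.50. In complex IV, Cox7b stood at 84.9 scaled CPM against 227 (log2 -1.42, -1.47 to -1.37), the lowest ratio of all members. These 3 genes, named for the lowest ratios of their complexes, were lower by TPM too. Ndufa6 was at 488 against 600.1 TPM, Uqcr11 at 689 against 902 and Cox7b at 250.5 against 381. The complexes as a whole were not: on log2(TPM + 0.1) 54 members were above 0 and 24 below. Summed TPM was higher in the stigmasterol liver for complexes I (9372 against 8991), II (958 against 769) and III (4804 against 4644). The same held for complexes IV (7495 against 6703) and V (9569 against 9029).

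The ATP synthase varied within itself in the stigmasterol liver. Atp5h, a subunit of the peripheral stalk, stood at 127 scaled CPM against 270.2 in the low sitosterol liver, and Atp5e, the epsilon subunit, at 128 against 268. Atp5b was nearer its baseline, with 997 against 1146 scaled CPM (log2 -0.20). The gap between them was narrower by TPM, where Atp5h was at 466 against 522 and Atp5b at 1721 against 1671. The c-ring genes parted: Atp5g1 had a log2 ratio of -1.04 and Atp5g3 of -0.61, while Atp5g2, with 49.9 against 41.4 scaled CPM (log2 0.27, interval 0.18 to 0.35), had the highest ratio of its complex. Atp5sl had the lowest ratio of the genes placed here, -1.19.

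The ergosterol liver gave a smaller and less even difference. Its median member was at -0.39 against 0.02 for all genes, a distance of -0.41, and 71 of 78 members were below 0. By 1.5-fold 23 were lower, against 12.5% of all genes, and 1 was higher, against 14.0%. On total counts the median member was at -0.22 and on log2(TPM + 0.1) at -0.02, with distances of -0.41 and -0.39. Of all genes called, 52.9% were higher by TMM and 70.8% by total counts.

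By scaled counts, small and large subunits differed in the ergosterol liver, and part of this was lost by TPM. Uqcrh, the hinge protein beside cytochrome c1, had 134 scaled CPM against 265 (log2 -0.98, interval -1.03 to -0.94) at low sitosterol. Ndufb2, of the membrane arm of complex I, had 44.3 against 85.8 (log2 -0.95), and Cox5b had 151 against 280.0 (log2 -0.89). By counts 7 members had ratios above 0. Ndufs1, the largest core subunit of complex I, had 96.0 against 75.1 (log2 0.35, interval 0.29 to 0.42), Sdha, the flavoprotein of complex II, had 506 against 413 (log2 0.29) and Atp5b had 1327 against 1146 (log2 0.21). By TPM, Ndufs1 was at 45.1 against 45.5 and Atp5b at 1514 against 1671, while Sdha, at 212 against 155 TPM, was higher on both scales. The other members above 0 by counts were higher by TPM too: Atp5a1 (744 against 583), Ndufv1 (162 against 149), Atp5g2 (90.9 against 65.1) and Ndufa4l2 (3.47 against 1.30). Grouped by role after their values had been seen, the 7 core subunits of complex I had a median of -0.20 and the 28 accessory subunits of -0.51. In complex III the median was -0.18 for the core and Rieske proteins and -0.56 for the 5 small subunits, and in complex V it was -0.13 for the catalytic head and -0.53 for the stalk and membrane subunits. On log2(TPM + 0.1), a check added after the values were seen, the core and accessory subunits of complex I came to -0.03 and -0.08. The same check gave 0.06 and -0.19 in complex III, and 0.08 and -0.22 in complex V.

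Transcript length moved with this pattern. In the ergosterol liver 35 members under 700 bases had a median of -0.50, and 308 other genes of that length had -0.49. From 700 to 1400 bases the medians were -0.34 for 26 members and -0.22 for other genes, and from 1400 bases -0.10 for 16 members and 0.09 for other genes. Short members were thus about level with other short genes in the ergosterol liver. In the stigmasterol liver the members' medians in the same bands were -0.77, -0.75 and -0.47, against -0.36, -0.17 and 0.15 for other genes, so that members stood lower in each band. On log2(TPM + 0.1) the ergosterol medians by band were -0.12, 0.02 and 0.02 for members, against -0.12, 0.15 and 0.42 for other genes. The part of transcript length in these ratios was not tested. Cytosolic ribosomal protein genes, which are also short, had medians of -0.18 in the high sitosterol, -0.58 in the ergosterol and -0.34 in the stigmasterol liver, with 2, 40 and 19 of 81 called lower and none higher. The first count is below the background share of 9.19%, and the others are above their 12.5% and 17.0%.

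**Figure D2:**
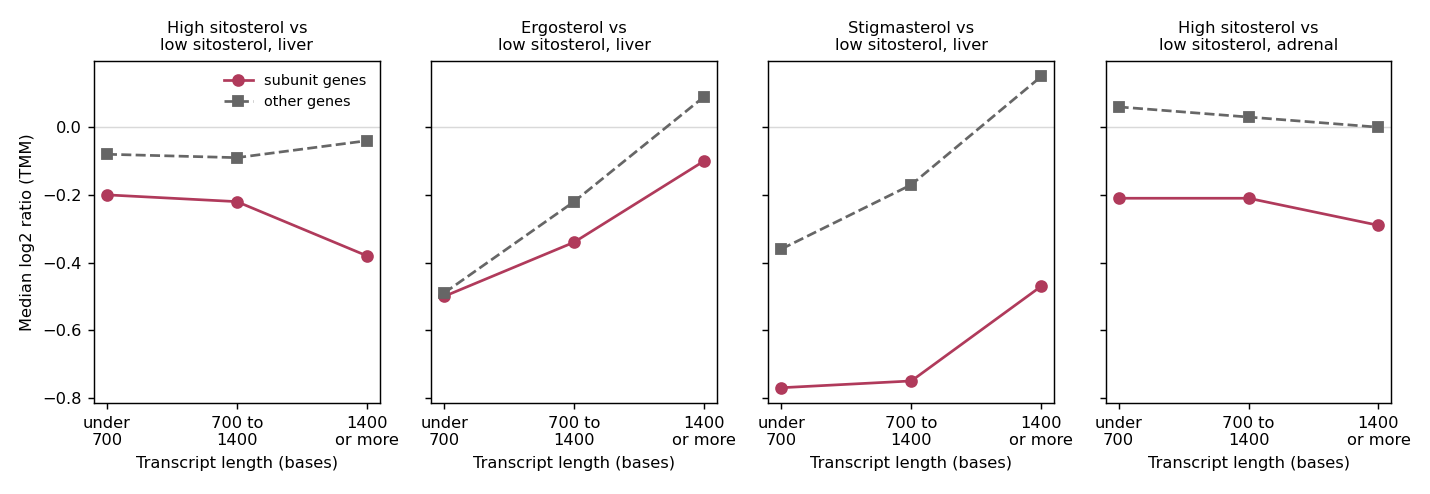
Median log2 ratio on the TMM scale (vertical axis) of subunit genes (circles) and of all other genes (squares) in 3 bands of transcript length in bases (horizontal axis), 1 panel a comparison. In the ergosterol panel both lines start near -0.50 for the shortest genes, whereas in the other 3 panels the subunit line lies below the other line in every band.

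The high sitosterol liver differed least from the low sitosterol liver. Its median member was at -0.24 against -0.05 for all genes, a distance of -0.19, and 70 of 78 members were below 0. By 1.5-fold 2 members were lower, against 9.19% of all genes, and 2 were higher, against 14.2%, so that both counts lay below the background. On total counts the median was -0.04 and on log2(TPM + 0.1) 0.04, with distances of -0.19 and -0.17. Of all genes called, 60.8% were higher by TMM and 78.2% by total counts. The 2 lower members were Ndufa8, with 119 scaled CPM against 192 (log2 -0.69, interval -0.74 to -0.64), and Ndufb8, with 111 against 169 (log2 -0.60), both accessory subunits of complex I. All 8 complex III genes were below 0, from -0.52 for Uqcrh to -0.06 for Uqcrq, and the ATP synthase genes ranged from -0.50 for Atp5l, subunit g, to 0.12 for Atp5s.

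Complex II, which has no mitochondrial gene, was followed gene by gene. Sdha had 288 scaled CPM in the high sitosterol, 506 in the ergosterol, 303 in the stigmasterol and 413 in the low sitosterol liver. Sdhb, the iron-sulfur subunit, had 257, 247, 168 and 298 in the same order. The membrane anchors Sdhc and Sdhd had 162, 172, 135 and 177, and 158, 190.3, 135 and 227. On this scale the ergosterol liver was thus highest for Sdha, while the low sitosterol liver was highest for the other 3 genes. By TPM the order changed for these 3. In the same order of livers, Sdhb was at 274, 289, 282 and 264 TPM. Sdhc was at 172, 256, 273 and 166 TPM, and Sdhd at 154, 203, 207 and 183 TPM. Sdha, at 141, 212, 197 and 155 TPM, was again highest in the ergosterol liver. Summed TPM of complex II over that of complex I was 0.0818 in the high sitosterol, 0.117 in the ergosterol, 0.102 in the stigmasterol and 0.0855 in the low sitosterol liver.

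**Figure D3:**
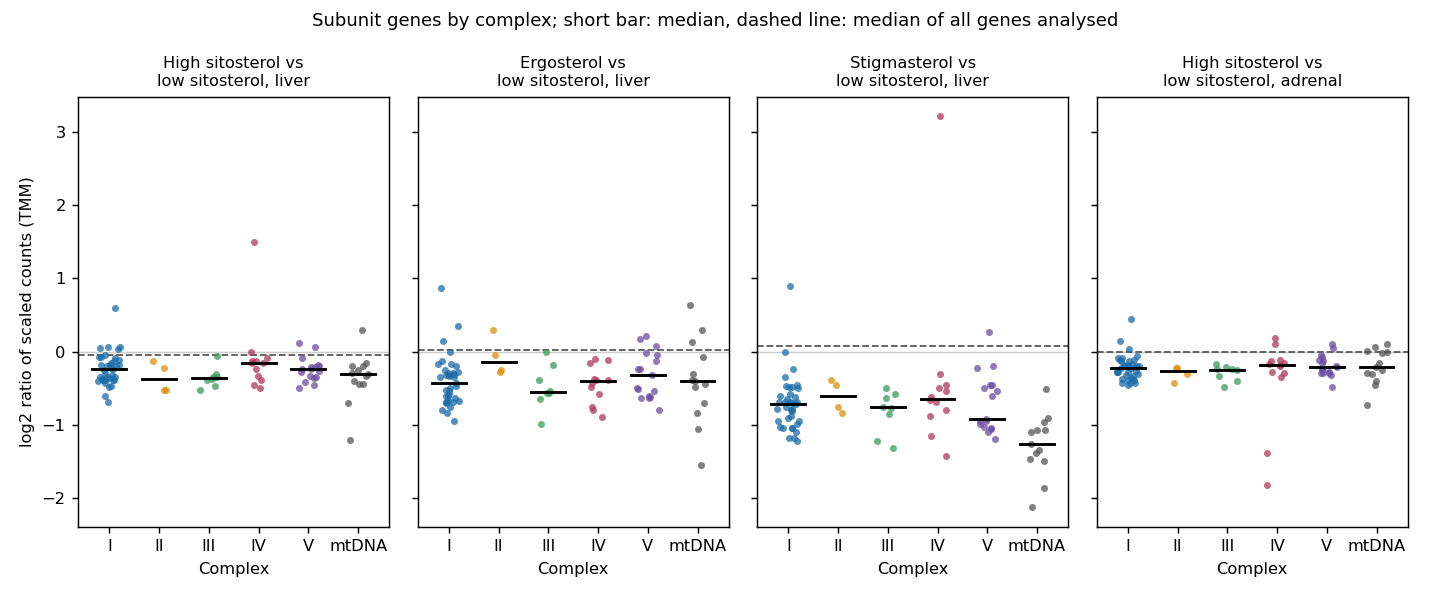
Log2 ratio of TMM-scaled counts (vertical axis) for each subunit gene by complex (horizontal axis, with the genes of mitochondrial DNA last), 1 panel a comparison and 1 point a gene. Short bars mark medians and the dashed line the median of all genes: the bars lie below that line in each panel, with the widest gap in the stigmasterol liver (-0.71 for complex I and -1.26 for the mitochondrial genes, against 0.08).

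A few members went the other way. Ndufa4l2, a paralogue of Ndufa4 known as a hypoxia-inducible gene, had the highest ratio of complex I in all 3 liver comparisons and in adrenal. It had 1.75 scaled CPM in the high sitosterol, 2.11 in the ergosterol, 2.16 in the stigmasterol and 1.15 in the low sitosterol liver, from 81, 94, 147 and 47 counts. Log2 ratios were 0.60 (interval 0.07 to 1.16), 0.87 (0.36 to 1.42) and 0.90 (0.43 to 1.42). In the adrenals it had 25.9 against 19.1 scaled CPM (log2 0.44). Cox6b2, a form of subunit VIb known from testis, had 17, 5, 82 and 5 counts in the same order of livers, and its log2 ratio in the stigmasterol liver was 3.21 (interval 2.02 to 4.96). It passed the limit in liver through the stigmasterol library alone, and Ndufa4l2 was under the limit in the low sitosterol liver, so that these genes were bound to differ. At 6.53 TPM in the stigmasterol liver, Cox6b2 remained far below Cox6b1, its general form, at 1024 TPM.

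Mitochondrial and nuclear genes did not differ evenly between the livers. In the stigmasterol liver the 13 mitochondrial protein genes had a median of -1.26, a distance of -1.34 from all genes, and 12 were called lower by 1.5-fold and 10 by 2-fold, against 17.0% and 7.79% of all genes. Their sum was 3.30 times that of the nuclear members, against 5.07 in the low sitosterol liver, a ratio that no scaling factor changes. It was 4.81 in the high sitosterol and 4.53 in the ergosterol liver. By summed TPM the ratio was 3.08 in the high sitosterol, 3.30 in the ergosterol, 2.36 in the stigmasterol and 3.50 in the low sitosterol liver. The stigmasterol liver was lowest on both measures, while the order of the high sitosterol and ergosterol livers turned. The mitochondrial gene with the highest counts, mt-Co1, for the catalytic subunit of complex IV, had 9357 scaled CPM in the stigmasterol liver against 19623 (log2 -1.07). Medians of the mitochondrial genes were -0.30 in the high sitosterol and -0.40 in the ergosterol liver, close to the members' -0.24 and -0.39.

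Mitochondrial genes also varied among themselves. mt-Nd3 had the lowest ratio in all 3 livers, with 612, 484 and 326 scaled CPM in the high sitosterol, ergosterol and stigmasterol livers against 1419.8 in the low sitosterol liver (log2 -1.21, -1.55 and -2.12). mt-Atp6, a membrane subunit of the ATP synthase, followed at -0.70, -1.05 and -1.86. mt-Atp8 had 0.29, 0.63 and -0.51. mt-Atp8 (GRCm38 chromosome M, 7766 to 7969) and mt-Atp6 (7927 to 8607) overlap on the same strand, as do mt-Nd4l (9877 to 10173) and mt-Nd4 (10167 to 11544). The split of reads within these pairs is uncertain where they overlap. Reads carry no strand information with the kit used, so that the split between mt-Nd5 and the opposite-strand mt-Nd6 is uncertain where these meet, from 13552 to 13565. By complex, summed mitochondrial over nuclear TPM was 2.50 in the stigmasterol against 3.47 in the low sitosterol liver for complex I, 1.29 against 1.69 for complex III, 4.95 against 7.38 for complex IV and 0.976 against 1.89 for complex V.

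Markers of other cell types moved with the stigmasterol liver. Summed TPM of 5 stellate cell and fibroblast markers was 570.2 in the stigmasterol against 68.2 in the low sitosterol liver, of 5 cholangiocyte markers 71.1 against 3.67, and of 8 macrophage markers 677 against 193. By log2 ratio 7 macrophage markers were above 0 and 1, Clec4f, was below it at -1.72. The 7 hepatocyte markers summed to 59415 against 62088 TPM, and their median log2 ratio on the TMM scale was -0.91, with all 7 below 0. Macrophage markers summed to 702 TPM in the high sitosterol and 356 TPM in the ergosterol liver, against the same 193 TPM. In whole tissue, fewer cells of a type and less RNA per cell cannot be told apart, and the part of these markers in the subunit ratios was not tested.

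Assembly factors, mitochondrial ribosomal proteins and citric acid cycle enzymes lay between the members and the median gene in the stigmasterol liver. Against the members' -0.71 and the 0.08 of all genes, 48 assembly factors had a median of -0.44, with 18 called lower and 1 higher. Of 78 mitochondrial ribosomal protein genes 22 were called lower and none higher (median -0.44), and of 13 citric acid cycle genes 2 were called lower and none higher (median -0.37). With 17.0% of all genes called lower, the first and second counts lay above the background and the citric acid cycle count just below it. The 5 genes for uncoupling and ADP/ATP exchange had a median of 0.61, with 3 of them above the median gene and 2 below it. Citrate synthase, Cs, had 122 scaled CPM against 236 in the low sitosterol liver (log2 -0.95), although by TPM it was 70.7 against 72.3. The subunits outside the rule lay with the members, at -0.74 for Cox4i1 and -0.67 for Cyc1. In the ergosterol liver 10 assembly factors and 10 mitochondrial ribosomal protein genes were called lower, with 1 and none higher, at medians of -0.22 and -0.33, and the citric acid cycle genes had a median of -0.00 with 1 lower and none higher. Against the 12.5% of all genes called lower there, the assembly factors were above the background, the mitochondrial ribosomal genes at it and the citric acid cycle genes below it. In the high sitosterol liver the 3 lists had medians of -0.17, -0.18 and -0.32, with 1, 2 and 1 called lower and none higher, each below the 9.19% of all genes.

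Among 15 regulators the coactivator Ppargc1b had 1.95 scaled CPM in the ergosterol liver (log2 -1.13, interval -1.52 to -0.75) and 1.76 in the stigmasterol liver (log2 -1.28, -1.63 to -0.94), against 4.28 in the low sitosterol liver. The high sitosterol liver had 4.36. Pprc1, a related coactivator, had 7.68 in the ergosterol and 9.23 in the stigmasterol liver against 17.8. Nrf1, which encodes the factor whose motif is printed above, had the highest ratio of the list in both livers (0.74 and 0.77). The list median was 0.03 in the ergosterol liver, with 3 called lower and 1 higher, -0.36 in the stigmasterol liver, with 4 lower and 1 higher, and -0.14 in the high sitosterol liver, with none called. Of all genes 12.5% in the ergosterol and 17.0% in the stigmasterol liver were called lower, and 14.0% and 29.9% higher. The counts of lower regulators lay above these shares and those of higher regulators below them. Members whose window held the NRF1 letters had a median of -0.58 in the stigmasterol liver (8 genes), against -0.75 for the 59 without. For the ETS letters the medians were -0.84 for 16 genes with them and -0.70 for 51 without. Both orders held in the ergosterol liver, at -0.33 with and -0.48 without the NRF1 letters, and -0.47 with and -0.42 without the ETS letters. Neither order held in the high sitosterol liver, where the medians were -0.30 with and -0.23 without the NRF1 letters, and -0.21 with and -0.28 without the ETS letters. Ucp2, an inner membrane carrier, had 45.8, 33.3 and 81.7 scaled CPM in the high sitosterol, ergosterol and stigmasterol livers against 24.4. Slc25a4, the muscle type ADP/ATP carrier, had 23.0 in the stigmasterol liver against 5.57 (log2 2.04), while Slc25a5, its main form in liver, was at -0.44. Of the 5 analysed genes for uncoupling and ADP/ATP exchange, 1 was called higher in the high sitosterol and 3 in the stigmasterol liver with none lower, and 1 was called lower in the ergosterol liver with none higher. The shares of all genes for these calls were 14.2%, 29.9% and 12.5%.

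The sterols were also set directly against each other. The side chain of stigmasterol carries a double bond that sitosterol lacks, and ergosterol is a fungal sterol. Since doses are not stated, the values are side by side and no effect of structure is read from them. The median member was at -0.49 in the stigmasterol against the high sitosterol liver (all genes 0.10), at -0.22 in the ergosterol against the high sitosterol liver (all genes 0.01) and at 0.33 in the ergosterol against the stigmasterol liver (all genes -0.04). On total counts these 3 medians were 0.01, -0.25 and -0.20, so that the first and the last change sign, with the same distances of -0.59, -0.22 and 0.37 to the median gene. In the ergosterol against the high sitosterol liver the members were not lower than other genes of like length. Their medians in the 3 length bands were -0.29, -0.18 and 0.20, against -0.47, -0.18 and 0.06 for other genes. In the other 2 of these comparisons the sign of the distance was the same in each band. The mitochondrial genes had -0.92, -0.08 and 0.81. Sdha (0.81) and Ndufs1 (0.83) had the highest ratios of complexes II and I in the ergosterol against the high sitosterol liver. By TPM Sdha was at 212 against 141 and Ndufs1 at 45.1 against 38.8, a smaller difference for Ndufs1, whose assumed length differed between these livers. Every comparison with the low sitosterol liver shares that 1 library, so that agreement between them is not independent.

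In the adrenals the high sitosterol library was slightly lower than the low sitosterol library for most members. The median member was at -0.22 against 0.00 for all genes, a distance of -0.23, and 72 of 79 members were below 0. By 1.5-fold 2 members were lower, against 7.16% of all genes, and none was higher, against 10.2%, so that the count again lay below the background. Here the scale mattered little, with medians of -0.21 on total counts and -0.25 on log2(TPM + 0.1). Medians by complex were -0.22, -0.26, -0.25, -0.18 and -0.21 for complexes I to V, and -0.21 for the mitochondrial genes. Members took 1.16% of the counts in the high sitosterol and 1.36% in the low sitosterol adrenal, and mitochondrial genes 6.02% and 6.54%. By length band the members' medians were -0.21, -0.21 and -0.29, against 0.06, 0.03 and -0.00 for other genes.

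The 2 lower members of the adrenal pair were both complex IV forms of muscle and brown fat. Cox7a1 had 7.30 scaled CPM in the high sitosterol against 25.8 in the low sitosterol adrenal (log2 -1.82), and Cox8b had 18.2 against 47.5 (log2 -1.38, -1.50 to -1.27). Their general forms Cox7a2 (89.1 against 99.8) and Cox8a (197 against 222) differed far less, with log2 ratios of -0.16 and -0.18. Markers of fat moved with them. Ucp1, the uncoupling protein of brown fat, was at 66.9 against 315 TPM, Cidea at 64.8 against 199, Elovl3 at 2.64 against 17.6 and Adipoq at 151 against 373. The 5 adipocyte markers summed to 2435 against 5647 TPM, and 4 of the 5 were called lower. The 7 brown adipocyte markers, of which Cox7a1 and Cox8b are 2, summed to 354 against 1163 TPM, and 5 of the 7 were lower. Of all genes 7.16% were called lower. Skeletal muscle markers, 7 genes, summed to 2.85 against 3.93 TPM. No adipocyte or brown adipocyte marker was at 0 in either adrenal, and 1 skeletal muscle marker was at 0 in the high sitosterol adrenal. The part of these markers in the ratios of Cox7a1 and Cox8b was not tested. Without Cox8b, Cox7a1 and Cox6a2 the members' share of counts was 1.16% against 1.35%, so that the share was lower by nearly as much.

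**Figure D4:**
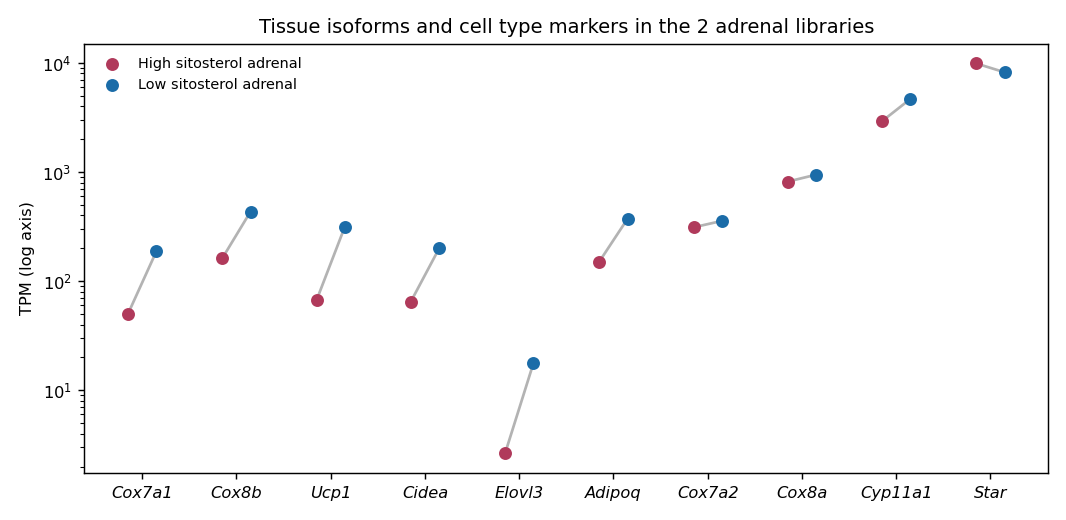
Deposited TPM (log axis) of 2 tissue forms of complex IV subunits, fat markers, the general forms Cox7a2 and Cox8a and 2 genes of steroid synthesis in the high sitosterol adrenal (red, left of each pair) and the low sitosterol adrenal (blue, right), 1 library a point. Cox7a1 (50.3 against 187) and Cox8b (162 against 434) are lower in the high sitosterol adrenal, as are Ucp1 and Adipoq, while Cox7a2 (311 against 356), Cox8a (816 against 944) and Star (9855 against 8183) lie close together. Cyp11a1, the other gene of steroid synthesis shown, is lower in the high sitosterol adrenal (log2 -0.64 by scaled counts).

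Other adrenal lists differed from the members in size. All 13 citric acid cycle genes were below 0, with a median of -0.42, 2 called lower, a share above the background of 7.16%, and none higher. The 78 mitochondrial ribosomal protein genes had a median of -0.06 and the 48 assembly factors of -0.12, with none called in either list. Cytosolic ribosomal protein genes had 80 of 81 ratios above 0, with a median of 0.20 and none called. The phosphate carrier Slc25a3, which supplies the ATP synthase, had 1420.2 scaled CPM against 928 (log2 0.61). It was the only gene called higher, and Ucp1 the only gene called lower, of the 7 for uncoupling and exchange. Pprc1 had 62.3 against 27.7 (log2 1.17). Ppargc1b had 2.79 against 4.53 (log2 -0.70). Of the 15 regulators these last 2 were the only ones called, 1 in each direction, and the list median was -0.07. Both regulator counts lay below the shares of all genes, 10.2% called higher and 7.16% lower. The 8 macrophage markers summed to 815 against 429 TPM. Values of other cell type markers follow. All 5 adrenal medulla markers were above 0 (median 0.40), with a sum of 5181 against 3952 TPM and none called. Of 5 stellate cell and fibroblast markers 4 were below 0 and 3 called lower (median -0.62), with a sum of 295 against 309 TPM. The 3 kidney tubule markers summed to 2.70 against 0.0264 TPM. Of the 8 cortex markers 4 were above and 4 below 0, and Cyp11a1, the first enzyme of steroid synthesis, had 2918 against 4665 TPM (log2 -0.64 by scaled counts). The part of these markers in the members' ratios was not tested.

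Between the liver and adrenal libraries the make-up of the complexes differed by TPM. The adrenals also differed from the livers in the Y-linked genes, as given above, so that tissue and sex as read from these genes cannot be told apart. The 5 adipocyte markers summed to 2435 and 5647 TPM in the high and low sitosterol adrenals, against 13.9 to 76.0 TPM in the livers. The part of these markers in the values below was not tested. Summed TPM of the 82 members was 27494 in the high sitosterol adrenal against 30519 in the high sitosterol liver, and 32848 in the low sitosterol adrenal against 30137 in the low sitosterol liver. Complex II over complex I was 0.125 and 0.132 in the high and low sitosterol adrenals against 0.0818 to 0.117 in the livers. Complex III over complex I was 0.372 and 0.389 against 0.497 to 0.517, and complex V over complex I 0.857 and 0.856 against 0.996 to 1.06. By TPM the adrenals thus lay outside the range of the 4 livers on each of these ratios. By summed counts this did not hold for complex V over complex I. These counts were 212648 to 166551 in the high and 212759 to 163713 in the low sitosterol adrenal. Both lay between the high sitosterol liver (221600 to 190370) and the ergosterol liver (238914 to 167010). The ratio of counts to TPM differed 2.79-fold between libraries for Atp5b, and its part in the complex V ratio was not tested. Among genes, Ndufa4l2 was at 55.6 and 47.5 TPM in the high and low sitosterol adrenals against 1.30 to 5.09 TPM in the livers, and Cox8b at 162 and 434 TPM against 0 to 1.30 TPM. Uqcrq, by contrast, was at 627 and 718 TPM against 1388 to 1827 TPM.

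Relative to the median gene, the members were lower in the adrenal libraries, with the same limits of apparent sex and fat markers. On the TMM scale of all 6 libraries the median member was at -1.66 in the high sitosterol adrenal against the high sitosterol liver, with all genes at 0.25, and at -1.70 in the low sitosterol adrenal against the low sitosterol liver, with all genes at 0.32. On log2(TPM + 0.1) the same medians were 0.06 and 0.30, with all genes at 1.94 and 2.24. The sign of the members' own change thus depends on the scale, while the distance was -1.91 and -2.02 by TMM and -1.88 and -1.93 by log2(TPM + 0.1). On log2(TPM + 1) it was smaller, at -1.43 and -1.37. Against genes of like length the distance was smaller for short transcripts. Under 700 bases the members' medians by TMM were -1.93 and -1.91 in the high and low sitosterol pairs, against -1.14 and -1.27 for other genes. From 700 to 1400 bases they were -1.58 and -1.50, against -0.62 and -0.64, and from 1400 bases -1.10 and -1.12, against 0.41 and 0.52. Members were thus lower in each band.

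Some levels rest on how reads were assigned to transcripts. The ratio of counts to TPM, which follows the length assumed for a gene, differed 2.79-fold between libraries for Atp5b, 1.63-fold for Ndufs1 and 1.51-fold for Sdhc, so that count and TPM ratios part for these genes. The TPM of Atp5b and Ndufs1 stand beside their count ratios above. Many subunit genes have processed pseudogene copies with near-identical sequence, and reads shared with them could not be told apart here.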

How the data were processed

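RNA was sequenced from 4 livers and 2 adrenals, 1 library a group. Per the labels, a Qiagen RNeasy kit served for extraction and a TruSeq v2 kit, without strand marking, for the libraries. The authors deposited 2 tables for the same libraries, 1 of estimated counts per gene symbol and 1 of TPM. Per the submitters' processing notes, the tools include Trimmomatic 0.33, HISAT2 2.0.5 and kallisto 0.43.1 and the genome build is mm10, with no role or order stated. No annotation is named in the labels. Between 38.8% and 49.1% of the deposited estimated counts were not whole, and they were rounded.

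The 1 row without a gene name held 0% of all counts and was dropped. Counts were scaled with TMM factors (edgeR 4.0.16, R 4.3.3) from the 4 livers (0.95 high sitosterol, 0.93 ergosterol, 1.35 stigmasterol, 0.83 low sitosterol), from the 2 adrenals, or from all 6 libraries between tissues. CPM after this scaling is called scaled CPM. Genes with at least 1 CPM in 1 library of the tissue were analysed, 13378 in liver and 14224 in adrenal. Log2 ratios used a prior count of 0.5 and exact conditional binomial (Clopper-Pearson) 95% intervals. These and the limit of 3 counts for a count of 0 cover counting error only. The intervals were tested on simulated data. No test across samples was possible. Coordinates and lengths came from GENCODE M21 (GRCm38), which matched 81 members. RefSeq gave the promoter windows.

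Named genes were the complex II genes, the highest and lowest ratio of each complex and comparison, the 5 highest levels, the isoform pairs, members below the limit and up to 3 genes of each other list. Others named, among them Ndufb8, Atp5h, Cox4i1, Cyc1, Cs, Slc25a5 and those given for transcript assignment, were chosen after their values were seen. The members and lists were chosen with earlier results of these data known. Alternatives were DESeq2 1.42.0 size factors, total counts with and without mitochondrial genes, the deposited TPM with a pseudocount of 0.1 or 1, no filter, a limit of 10 CPM, the added subunits and the omission of muscle forms.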

Additional observations from a re-analysis of the deposited data

Results flagged for a closer look

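Reads were also listed for 3 pseudogene symbols that the name rule left out for their hyphen, above the 3 counts that a count of 0 allows. Atp5l-ps2 had 7, 26, 15 and 11 counts in the high sitosterol, ergosterol, stigmasterol and low sitosterol livers and 8 and 5 in the high and low sitosterol adrenals, so that its highest count was 26. Atp5l itself had 6758 counts in the ergosterol liver. Atp5k-ps2 had at most 4 counts, in the low sitosterol liver. Atp5l2-ps had at most 4 counts, in the ergosterol liver. What these counts stem from was not tested.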

How the results depend on the processing

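Each other scaling of the counts moves every gene of a pair alike, so that the distance between the median member and the median gene could not change under it. Under both TPM settings and no filter this distance kept its sign in all 9 comparisons, whereas the members' own ratios did not. On log2(TPM + 1) it was -0.11 for the high sitosterol, -0.27 for the ergosterol and -0.56 for the stigmasterol liver, against -0.19, -0.41 and -0.79 by TMM. In the adrenal pair it was -0.24 against -0.23. DESeq2 size factors changed no result beyond its limits, nor did a limit of 10 CPM, the added subunits or the omission of Cox8b, Cox7a1 and Cox6a2. With total counts, total counts without mitochondrial genes, log2(TPM + 0.1) and log2(TPM + 1), in that order, the members' median was -0.04, -0.05, 0.04 and 0.04 for the high sitosterol against the low sitosterol liver (-0.24 by TMM). It was -0.22, -0.24, -0.02 and -0.02 for ergosterol (-0.39) and -0.01, -0.05, 0.16 and 0.16 for stigmasterol (-0.71). For the stigmasterol against the high sitosterol liver it was 0.01, -0.02, 0.15 and 0.15 (-0.49), and for the ergosterol against the stigmasterol liver -0.20, -0.18, -0.19 and -0.19 (0.33). For the high sitosterol adrenal against liver it was -0.32, -0.32, 0.06 and 0.06 (-1.66), and for the low sitosterol adrenal against liver -0.22, -0.23, 0.30 and 0.30 (-1.70). The median of the mitochondrial genes turned to 0.05 by both TPM settings for the ergosterol against the high sitosterol liver (-0.08), to 0.40 by both for the high sitosterol adrenal against liver (-1.39), and to 0.10, 0.09, 0.66 and 0.66 under the 4 settings for the low sitosterol adrenal against liver (-1.38).

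Members called lower by 1.5-fold were 0 under each of the 4 settings for the high sitosterol liver (2 by TMM), 9, 9, 2 and 2 for ergosterol (23) and 2, 2, 1 and 1 for stigmasterol (52). Members called higher were 4, 4, 6 and 5 for stigmasterol (2), 2 under both TPM settings for ergosterol (1) and 0 under log2(TPM + 1) for the high sitosterol liver (2). By construction, total counts move every gene alike, and TPM moves genes by assumed length too. No paired analysis was possible because each group has 1 library. Leaving out a replicate was impossible for the same reason. Depth limits Cox6b2, Ndufa4l2 and the genes listed at 0. For the subunits above 10 CPM counting error is small, and the spread between mice is unknown.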
